A study of Mus musculus with 5 samples.

Results

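The transcripts described are those of 10 scavenger receptors and receptor-like proteins: *Msr1*, *Marco*, *Cd163*, *Cd5l*, *Cd36*, *Scarb1*, *Scarb2*, *Stab1*, *Stab2* and *Lyve1*. They were chosen by name as macrophage and endothelial scavenger receptors, and all 10 were found among the 18820 genes that had an array row carrying their symbol alone. Each of the 10 had 1 such row. Liver RNA came from adult C57BL/6 mice injected subcutaneously on 4 consecutive days with CSF1-Fc or with phosphate-buffered saline (PBS), and the mice were culled on day 5. CSF1-Fc is pig macrophage colony-stimulating factor joined to the Fc part of a pig immunoglobulin. There were 3 CSF1-Fc livers and 2 PBS livers, with 1 Affymetrix Mouse Gene 1.1 ST array each. The study describes each array as an individual mouse, and the labels number the samples without naming the animals, so p-values measure the spread between these samples.

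Scavenger receptors are membrane proteins that bind modified lipoproteins, polyanions, microbial surfaces and spent plasma proteins, and pass them to the lysosome. The liver clears most of this material from the blood. Kupffer cells, the resident macrophages of the sinusoids, take up particles and haemoglobin complexes, and the sinusoidal endothelium takes up soluble polymers such as hyaluronan. The family is held together by function and not by descent: class A receptors have a collagen-like stalk, class B receptors have the CD36 fold, CD163 and CD5L are built of scavenger receptor cysteine-rich (SRCR) domains, and the stabilins and LYVE1 carry link domains.

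Of the 10 transcripts, 5 were higher in CSF1-Fc livers than in PBS livers (*Msr1*, *Cd163*, *Cd5l*, *Marco* and *Cd36*), 0 were lower and 5 did not pass (*Scarb1*, *Scarb2*, *Stab1*, *Stab2* and *Lyve1*). The test was limma on log2 normalized intensity with a Benjamini-Hochberg adjusted p under 0.05 over 35556 rows. Among all genes 8.34% were higher and 3.95% were lower, and 6.14% were higher by at least 1 log2 unit, as all 5 receptors were. The median log2 fold change was 0.98 over the 10 transcripts and -0.08 over all genes. At an unadjusted p under 0.05, 6 of the 10 were higher by limma, *Lyve1* being the sixth, and 0 were lower. The share of all genes past that unadjusted limit was not counted, so these counts have no background beside them. With so few arrays the smallest p of an exact two-sided permutation test for a single gene is 0.1, so significance rests on the fit across all rows. Leaving out PBS replicate 2 left 3 of the 10 higher. Over all rows 2052 were higher (5.77%) and 1133 lower (3.19%), against 2488 and 478 after centring each array on genes for secreted hepatocyte proteins, a scaling that moved the median change of all rows to 0.14, against -0.08 as reported.

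**Figure D1:**
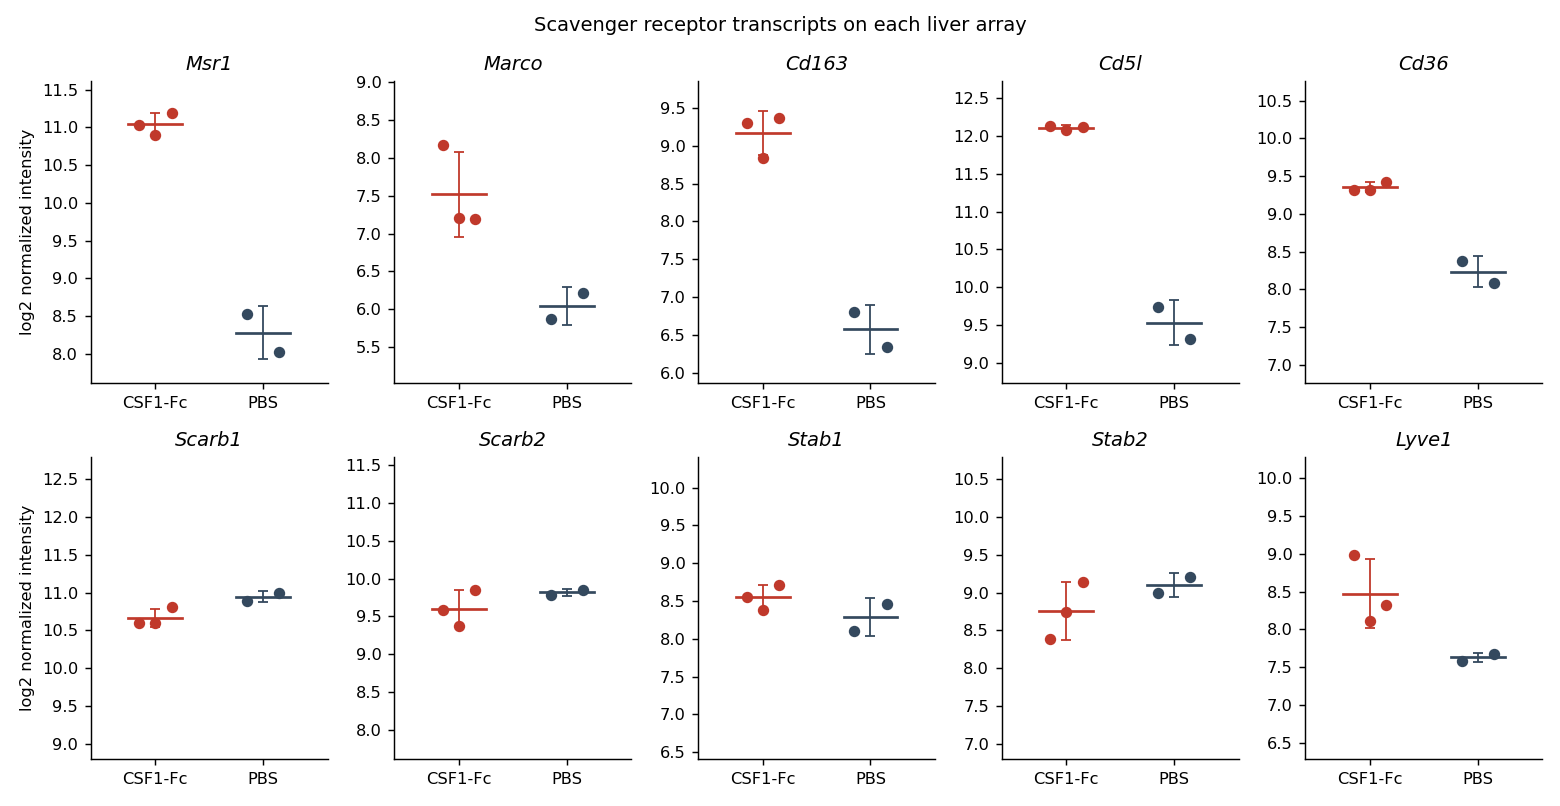
Log2 normalized intensity of each of the 10 transcripts (vertical axes, each spanning 4 log2 units) on the 3 CSF1-Fc arrays (red) and the 2 PBS arrays (dark). Points are arrays, horizontal bars the mean and error bars 1 SD. In *Msr1*, *Cd163* and *Cd5l* the groups lay more than 2 log2 units apart, and in *Scarb2*, *Stab1* and *Stab2* they overlapped.

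*Msr1* encodes the class A macrophage scavenger receptor, a trimer that takes up acetylated and oxidised low density lipoprotein. Its log2 intensity was 11.03, 10.90 and 11.20 on the CSF1-Fc arrays, against 8.53 and 8.03 on the PBS arrays. All 3 CSF1-Fc livers lay above both PBS livers, with a gap of 2.37 log2 units between the nearest arrays. *Msr1* rose by 2.76 log2 units (adjusted p = 0.000485, standard error 0.19), or 6.78-fold, and 0.850% of genes had a larger change. Without moderation of the variance the adjusted p was 0.0508.

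*Marco*, the other class A receptor, binds bacteria and particles and is carried in the liver by Kupffer cells. On the log2 scale it measured 8.17, 7.21 and 7.19 on the CSF1-Fc arrays, against 5.87 and 6.22 on the PBS arrays. CSF1-Fc replicate 1 stood about 1 log2 unit above the other treated livers, and the groups still did not overlap. *Marco* rose by 1.48 log2 units (95% interval 0.70 to 2.26, adjusted p = 0.0411). This call was close to the threshold: the adjusted p was 0.209 without PBS replicate 1, 0.146 without PBS replicate 2, 0.252 without moderation, 0.0587 after quantile normalization and 0.0844 with a pseudocount of 16. The rise of *Msr1* exceeded that of *Marco* by 1.28 log2 units on average and by 0.62 to 1.77 in single CSF1-Fc livers, with an exact two-sided permutation p of 0.2.

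*Cd163* encodes the macrophage receptor for haptoglobin-haemoglobin complexes. The arrays gave log2 intensities of 9.30, 8.83 and 9.37 on the CSF1-Fc arrays, against 6.80 and 6.34 on the PBS arrays. The treated livers were all more than 2 log2 units above the higher PBS liver. The rise was 2.60 log2 units (adjusted p = 0.00104, standard error 0.22), and the adjusted p was 0.0693 without moderation.

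*Cd5l*, also called AIM, encodes a soluble SRCR protein that tissue macrophages secrete into plasma. Log2 intensities were 12.14, 12.08 and 12.12 on the CSF1-Fc arrays, against 9.74 and 9.32 on the PBS arrays. The treated livers spanned 0.06 log2 units and the PBS livers 0.42. The rise was 2.58 log2 units (adjusted p = 0.000447, standard error 0.16). *Cd163* and *Cd5l* changed by amounts that differed by 0.02 log2 units, between -0.29 and 0.21 in single CSF1-Fc livers (exact two-sided permutation p = 1). *Cd5l* was the one transcript of the 10 that stayed past the threshold under all 18 other settings tried.

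Among 11 other genes for proteins with SRCR domains, 0 were higher and 0 lower by limma, with a median log2 fold change of -0.16. At an unadjusted p under 0.05, a limit for which no share of all genes was counted, 1 was higher and 1 lower. These were *Lgals3bp*, a secreted glycoprotein, at 0.66 (standard error 0.23, adjusted p = 0.149), and *Cd163l1*, a relative of *Cd163* that was dim in both groups, at -0.34 (adjusted p = 0.183). Without CSF1-Fc replicate 2, 1 of the 11 was higher after adjustment. *Cd5* and *Cd6*, SRCR receptors of T cells, were at 0.16 and -0.05, and both were dim.

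Among class B receptors *Cd36* rose alone. CD36 takes up long-chain fatty acids and oxidised lipoproteins and is found on macrophages, endothelium and hepatocytes. The transcript measured 9.32, 9.32 and 9.43 on the CSF1-Fc arrays, against 8.38 and 8.09 on the PBS arrays. The groups did not overlap, and the CSF1-Fc livers lay within 0.11 log2 units of each other. *Cd36* rose by 1.12 log2 units (adjusted p = 0.00551, standard error 0.14), or 2.17-fold, and the adjusted p was 0.0617 without PBS replicate 2 (log2 fold change 0.97), 0.0639 against a minimum change of 0.5 and 0.0687 without moderation.

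*Scarb1* encodes the receptor through which hepatocytes take cholesteryl esters from high density lipoprotein. Its log2 intensity was 10.60, 10.60 and 10.81 on the CSF1-Fc arrays, against 10.89 and 11.00 on the PBS arrays. All CSF1-Fc livers were below both PBS livers, by as little as 0.08 log2 units, an order shown by 29.3% of all genes. The change of -0.28 log2 units did not pass (adjusted p = 0.292), and its 95% interval was -0.60 to 0.05.

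*Scarb2* encodes a lysosomal membrane protein of the same fold that carries glucocerebrosidase to the lysosome. Log2 intensities of *Scarb2* were 9.59, 9.37 and 9.85 on the CSF1-Fc arrays, against 9.79 and 9.85 on the PBS arrays. The groups overlapped, and the change of -0.21 log2 units did not pass (95% interval -0.63 to 0.20, adjusted p = 0.533). The change of *Cd36* exceeded that of *Scarb1* by 1.39 and that of *Scarb2* by 1.33 log2 units, and in both pairs the groups lay apart (exact two-sided permutation p = 0.1 each, the smallest possible). The changes of *Scarb2* and *Scarb1* differed by 0.06 (exact p = 0.6). In all, 6 pairs within a structural class were compared, and no exact p of this design can pass a threshold of 0.05.

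**Figure D2:**
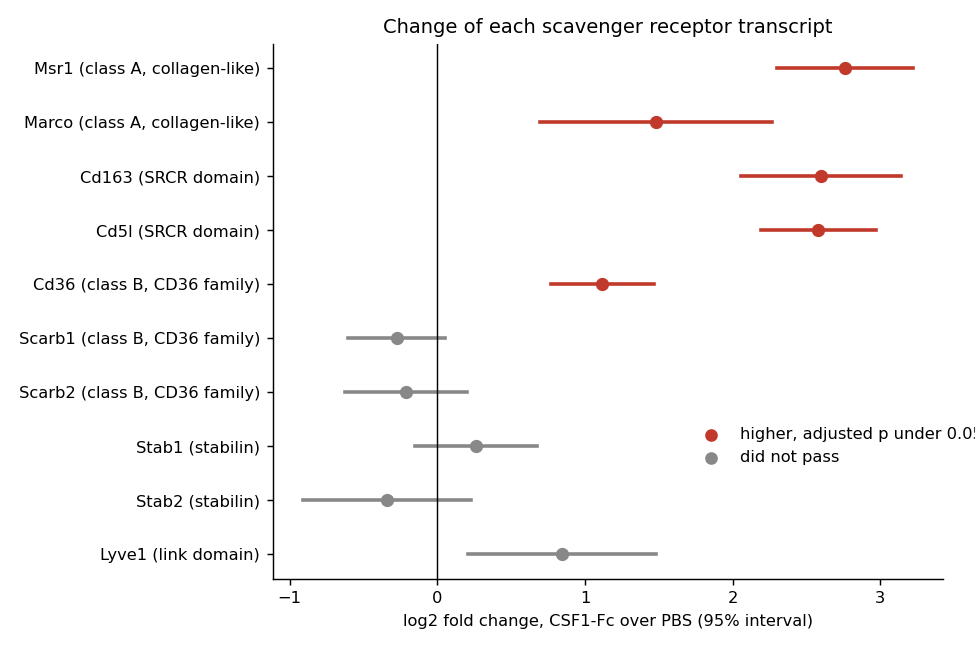
Log2 fold change of each transcript, CSF1-Fc over PBS (horizontal axis), with its 95% interval from limma. Red marks an adjusted p under 0.05. The intervals of *Msr1*, *Cd163* and *Cd5l* lay above 2, that of *Lyve1* ran from 0.21 to 1.48 without passing after adjustment, and those of *Scarb1*, *Scarb2*, *Stab1* and *Stab2* included 0.

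The stabilins are large receptors of the sinusoidal endothelium that clear material from the blood, including hyaluronan in the case of stabilin-2. Stabilin-1 is also made by some macrophages. *Stab1* was at a log2 intensity of 8.55, 8.38 and 8.71 on the CSF1-Fc arrays, against 8.11 and 8.47 on the PBS arrays. The groups overlapped, and the log2 fold change was 0.26 (95% interval -0.15 to 0.68, adjusted p = 0.429). A different row, annotated to both *Stab1* and *Nt5dc2*, the gene that overlaps one end of *Stab1* in the RefSeq annotation of GRCm38.p6, had log2 intensities of 9.74, 9.66 and 9.36 on the CSF1-Fc arrays, against 7.97 and 7.79 on the PBS arrays. That row was higher by 1.71 log2 units (adjusted p = 0.00157, standard error 0.16). The genes lie on opposite strands, *Stab1* on the minus and *Nt5dc2* on the plus strand, and share 108 bases. No row carried *Nt5dc2* alone, and which of the genes the shared row measures was not settled. Its rise is not read as a rise of *Stab1*, whose level rests on the row that did not pass.

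*Stab2*, which in the liver marks sinusoidal endothelium, was at 8.39, 8.74 and 9.15 on the CSF1-Fc arrays, against 8.99 and 9.21 on the PBS arrays. The CSF1-Fc livers spread over 0.76 log2 units, and only replicate 3 reached the PBS range. Its change of -0.34 log2 units did not pass (95% interval -0.91 to 0.22, adjusted p = 0.453). The difference between the changes of *Stab1* and *Stab2* was 0.61 log2 units, the groups lay apart and the exact two-sided permutation p was 0.1.

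*Lyve1* encodes a hyaluronan receptor of lymphatic and sinusoidal endothelium that some tissue macrophages also carry. Log2 intensities of *Lyve1* were 8.99, 8.11 and 8.33 on the CSF1-Fc arrays, against 7.59 and 7.67 on the PBS arrays. The treated livers were all above the PBS livers, as for 18.2% of all genes, and replicate 1 was the highest, as it was for *Marco*. The difference of 0.84 log2 units did not pass (adjusted p = 0.115, standard error 0.26). The transcript passed in 4 other settings: with arrays centred on secreted proteins (adjusted p = 0.0418), over rows with 1 gene symbol (0.0361), with the mean over a gene's rows (0.0322) and with array weights (0.0150), which gave CSF1-Fc replicate 1 a weight of 4.19 and the other CSF1-Fc arrays 0.47 and 0.43.

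Markers of the cells that carry these receptors moved in the same livers, in which 8.34% of all genes were higher and 3.95% lower. Of 18 macrophage markers 18 were higher, with log2 fold changes of 1.16 to 3.66 and a median of 2.42, and the changes of *Msr1*, *Cd163*, *Cd5l* and *Marco* fell inside that range while that of *Cd36* fell just below it. The study had already reported *Csf1r*, *Adgre1*, *Cd68*, *Itgam*, *Lyz1* and *Mpeg1* as induced in the treated livers. The outcome for this list was therefore partly known beforehand. *Csf1r*, the receptor of the injected factor, was at 1.93 (adjusted p = 0.00105) and *Adgre1*, which encodes the F4/80 antigen, at 2.62 (adjusted p = 0.000357). *Fcgr1*, *Cd68* and *Tyrobp* were at 3.66, 2.87 and 2.80. The summed intensity of the 18 markers was 35790 to 38356 in CSF1-Fc livers, against 7468 to 8160 in PBS livers. Of 13 Kupffer cell markers 10 were higher (median 1.81), among them *Timd4*, *Clec4f* and *Vsig4* at 2.72, 1.94 and 1.65. Others near the top were *Spic* (2.71) and *Folr2* (2.29). The 3 that did not pass were *C6*, *Id3* and *Xcr1*. *C6* was at -0.42, with all CSF1-Fc arrays below both PBS arrays. *Id3* was at 0.05, with PBS livers at 9.35 and 7.54, and *Xcr1* was at 0.15 and dim in both groups. The summed intensity of the 13 was 23713 to 24048, against 7832 to 8815 in PBS livers. Of 7 blood monocyte markers 7 were higher (median 2.95), led by *Plac8* (4.14), *Ccr2* (3.58), *Treml4* (3.30) and *S100a4* (2.95), with 4 of the 7, *Ccr2* and *S100a4* among them, dim in PBS livers (mean log2 intensity under 5) and the size of their change and of the median uncertain. The list had a summed intensity of 3312 to 4000, against 325 to 399 in PBS livers. No marker was listed at 0 on any array. The part that these cells had in the rise of the receptors was not tested. In whole liver, more cells of a type and more RNA per cell cannot be told apart.

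**Figure D3:**
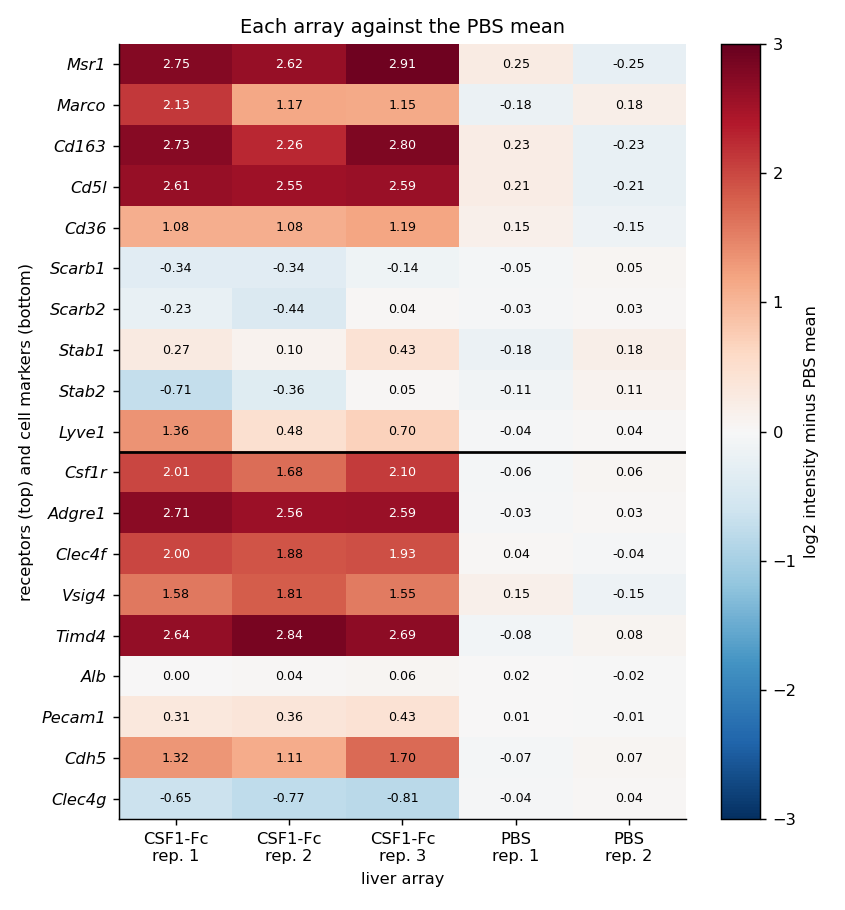
Log2 intensity of each receptor (above the line) and of 9 defining cell markers (below it) on each array, minus the PBS mean of that gene. Columns are arrays, colour and printed number give the difference in log2 units. *Msr1*, *Cd163* and *Cd5l* sat between 2.26 and 2.91 on the CSF1-Fc arrays, *Adgre1* and *Timd4* between 2.56 and 2.84, and *Alb* between 0.00 and 0.06.

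Calls among the endothelial markers went both ways, with more lower than higher. Among 20 sinusoidal endothelial markers, 2 were higher, 4 lower and 14 not past the threshold, with a median of -0.33. For 11 of the 20 all CSF1-Fc arrays lay below both PBS arrays, as for 29.3% of all genes. For 3 all lay above, as for 18.2% of all genes. In so short a list the higher count is not far from the share of all genes. The shares of all genes were 8.34% higher and 3.95% lower. *Ptprb*, an endothelial phosphatase, was at -1.57 (adjusted p = 0.00414), and *Ehd3* (-0.87), *Dnase1l3* (-0.80) and the lectin *Clec4g* (-0.74) were lower too. *Clec1b* rose (2.13), as did the cadherin *Cdh5* (1.38), and *Pecam1* was at 0.36 (adjusted p = 0.135). Kupffer cells also express *Clec1b* and *Cdh5*. On average over the list the CSF1-Fc livers stood at -0.33, -0.19 and -0.07 log2 units from the PBS mean in replicates 1, 2 and 3, and *Stab2* stood at -0.71, -0.36 and 0.05. *Stab1* stood above the PBS mean at 0.27, 0.10 and 0.425, and *Lyve1* at 1.36, 0.48 and 0.70. The summed intensity of the list was 7539 to 8475 in CSF1-Fc livers, against 9019 to 9569 in PBS livers. The part of these cells in the values of *Stab1*, *Stab2* and *Lyve1* was not tested. The 4 lower markers became 2 without CSF1-Fc replicate 1 and 1 without either PBS replicate, and the 2 higher became 1 without either PBS replicate.

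Other cell types were followed with short lists, to be read beside the 8.34% of all genes that were higher and the 3.95% that were lower. Of 13 lymphocyte and neutrophil markers 9 were higher (median 1.45), with *S100a8* at 3.97, *S100a9* at 3.22, *Nkg7* at 1.95 and *Cd79b* at 1.89. The 4 that did not pass were *Cd3e* (0.25), *Cd8a* (0.16), *Klrb1c* (0.53) and *Cd4* (-0.51). Of these, *Cd8a* and *Klrb1c* were dim in both groups and *Cd3e* in PBS livers. The study's liver histology found no neutrophil infiltration. The PBS livers differed in *S100a8* (5.92 and 4.29), and its log2 fold change was 4.78 without PBS replicate 1 and 3.15 without PBS replicate 2. Of the 9, 5 were dim in PBS livers, *S100a9* among them. Their summed intensity was 1508 to 1963 in CSF1-Fc livers, against 381 to 459 in PBS livers. Of 11 stellate cell and lymphatic markers 1 was higher, the smooth muscle actin *Acta2* (1.99), and 1 was lower, *Colec11* (-0.58). The lower one was lost when either PBS replicate or CSF1-Fc replicate 1 or 2 was left out, and 2 were lower without CSF1-Fc replicate 3. *Pdpn*, a lymphatic endothelial marker, was dim and at 0.10 (adjusted p = 0.755). Of 25 genes of liver secreted proteins 0 were higher and 0 lower by limma (median -0.12). For 13 of the 25 all CSF1-Fc arrays lay below both PBS arrays, as for 29.3% of all genes. For 1 all lay above, as for 18.2% of all genes. At an unadjusted p under 0.05, with no share of all genes counted, 0 were higher and 2 lower. The lowest p was that of *F9* at -0.91 (adjusted p = 0.0980). *Alb* was at 0.03 (adjusted p = 0.906). Its mean log2 intensity was 13.26 in CSF1-Fc livers, against 13.22 in PBS livers. Whether so bright a row can show a change was not tested.

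Among 14 scavenger receptors outside the 10, there were 5 higher, 0 lower and 9 not past the threshold, with a median of 0.13 (all genes: 8.34% higher, 3.95% lower). The 5 were *Cd68*, a macrophage endosomal glycoprotein (2.87, standard error 0.19, adjusted p = 0.000467), *Clec7a*, the beta-glucan receptor (2.65, adjusted p = 0.00122), *Cd207*, or langerin (1.99, adjusted p = 0.00229), *Cd14*, the endotoxin co-receptor (1.09, adjusted p = 0.0142), and *Mrc1*, the mannose receptor of macrophages and sinusoidal endothelium (0.94, adjusted p = 0.0155). *Cd68* is also counted on the macrophage list. *Cxcl16*, a chemokine that in its membrane form binds oxidised lipoprotein, was at 0.86 (adjusted p = 0.0541). The class A relative *Colec12*, found on vascular endothelium, was at -0.96, with 8.14, 7.67 and 8.44 on the CSF1-Fc arrays, against 9.02 and 9.06 on the PBS arrays (adjusted p = 0.0567). The remaining 7 were *Scara3* (-0.57), *Scara5* (-0.55), *Scarf2* (-0.30), *Megf10* (-0.24), *Ager* (-0.12), *Scarf1* (0.08) and *Olr1* (0.19). *Olr1*, *Megf10* and *Ager* were dim, under a log2 intensity of 5. The 5 higher became 3 when either PBS replicate was left out, and 2 were lower without CSF1-Fc replicate 3.

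**Figure D4:**
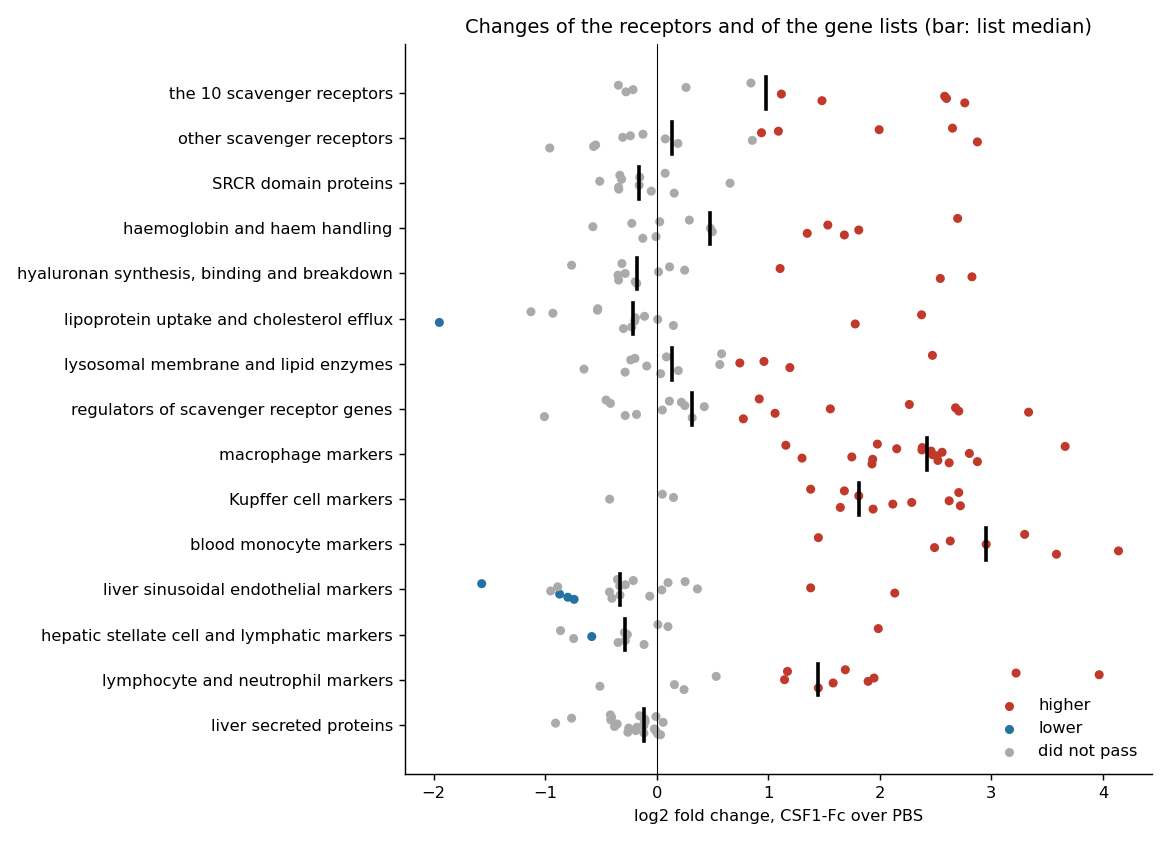
Log2 fold change, CSF1-Fc over PBS, of every measured gene (points) in the 10 scavenger receptors and in 14 gene lists (rows), with the list median as a black bar. Red points were higher and blue lower at an adjusted p under 0.05. The medians were 0.98 for the 10 receptors, 2.42 for macrophage markers and -0.33 for sinusoidal endothelial markers.

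The genes that act with these receptors were read by pathway, and their counts stand against 8.34% of all genes higher and 3.95% lower. For CD163, whose ligand is broken down to iron and bile pigment, 5 of 13 genes of haemoglobin and haem handling were higher and 0 were lower (median 0.48). *Hmox1*, the inducible haem oxygenase, was at 1.68 (standard error 0.15, adjusted p = 0.00116). The iron exporter *Slc40a1* was at 1.81, the phagosomal metal carrier *Slc11a1* at 2.70, the haem exporter *Flvcr1* at 1.53 and biliverdin reductase *Blvra* at 1.35. *Hmox1* and *Slc40a1* are also counted on the Kupffer cell list. The plasma carriers made by hepatocytes did not pass: haptoglobin *Hp*, which binds haemoglobin for CD163, was at -0.12 (adjusted p = 0.697) and haemopexin *Hpx*, which binds free haem, at -0.01 (adjusted p = 0.986).

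For CD36 and SCARB1, 2 of 14 genes of lipoprotein uptake and cholesterol efflux were higher and 1 was lower (median -0.21). In so short a list these counts are not far from the shares of all genes, 8.34% higher and 3.95% lower. The sterol exporter *Abcg1* rose by 2.37 (standard error 0.13, adjusted p = 0.000392) and lipoprotein lipase *Lpl* by 1.78 (adjusted p = 0.00520). Endothelial lipase *Lipg* fell to 4.75 ± 0.18 in CSF1-Fc livers, against 6.70 ± 0.25 in PBS livers (mean log2 intensity and SD), which is -1.95 log2 units (adjusted p = 0.00126), and it was dim in CSF1-Fc livers, so the size of the fall is uncertain. *Pdzk1*, the adaptor that holds SCARB1 at the hepatocyte surface, was at -0.53 (adjusted p = 0.255), and *Apoa1*, the main protein of high density lipoprotein, at 0.01 (adjusted p = 0.979). Without PBS replicate 2 there was 1 higher, and without CSF1-Fc replicate 3 there were 3 lower.

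For SCARB2, 4 of 14 genes of the lysosomal membrane and lipid breakdown were higher and 0 were lower (median 0.14). They were *Laptm5* (2.47), which is specific to blood cells and is also on the macrophage list, *Npc2* (1.19), the ceramidase *Asah1* (0.96) and the galactosidase *Gla* (0.74). The general lysosomal membrane proteins *Lamp1* and *Lamp2* were at 0.04 (adjusted p = 0.904) and -0.28 (adjusted p = 0.253). Leaving out CSF1-Fc replicate 1 or PBS replicate 1 left 2 of the 4, and leaving out PBS replicate 2 left 1.

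For stabilin-2 and LYVE1, 3 of 13 genes of hyaluronan synthesis, binding and breakdown were higher and 0 were lower (median -0.18). *Cd44*, the leukocyte hyaluronan receptor, was at 2.54 (standard error 0.18, adjusted p = 0.000543), with 8.50, 8.14 and 8.65 on the CSF1-Fc arrays, against 5.89 and 5.88 on the PBS arrays. *Hmmr*, a hyaluronan-binding protein of the mitotic spindle, was at 2.83 and the matrix proteoglycan *Vcan* at 1.11, and both were dim in PBS livers. The synthases *Has1* and *Has2* were dim in both groups, at -0.18 and -0.19.

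Of 19 regulators known to act on scavenger receptor genes in macrophages, hepatocytes or endothelium, 8 were higher and 0 were lower (median 0.32). *Spi1* (PU.1), the myeloid master regulator, was at 3.33, *Spic* at 2.71, *Tfec* at 2.68, *Irf8* at 2.26, *Zeb2* at 1.56, *Maf* at 1.06, *Klf2* at 0.92 and *Nr1h3* at 0.78. *Spic* is also counted on the Kupffer cell list. *Nr1h3* encodes the oxysterol receptor LXR alpha, under which macrophages express *Cd5l*, and its adjusted p was 0.0308. *Pparg*, a known activator of *Cd36*, was at 0.32 (adjusted p = 0.562) with PBS livers at 7.96 and 7.06, and *Ppara*, its counterpart in hepatocytes, at -1.01 (adjusted p = 0.0511). The 8 became 5 without CSF1-Fc replicate 1 and 5 without either PBS replicate, and 1 was lower without CSF1-Fc replicate 3.

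RefSeq promoter windows of GRCm38.p6 (250 bases before to 50 after a transcript start) were at hand for 7 of the 10 genes. The start used for *Cd36* lies 53.1 kb inside the annotated gene, so its window is that of an internal transcript start, and the starts of the other 6 lie 0 to 96 bases from the outer end of their gene. Those of the 4 transcripts that rose and had a window are shown over the 250 bases before that start, 5′ to 3′ in the direction of transcription, so that motifs of the macrophage regulators can be looked for in them. Capitals mark matches to 4 motifs searched on both strands: GAGGAAGT (PU.1), CACGTG (E-box core), AGGTCA (nuclear receptor core) and TGCTGA (MAF core).
Cd5l, chr3:87357631-87357880, plus strand: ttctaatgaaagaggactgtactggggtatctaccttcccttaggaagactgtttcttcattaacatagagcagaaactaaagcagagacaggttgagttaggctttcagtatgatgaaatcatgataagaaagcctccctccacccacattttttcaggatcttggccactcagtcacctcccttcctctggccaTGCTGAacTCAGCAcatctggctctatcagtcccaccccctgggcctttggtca
Cd163, chr6:124304401-124304650, plus strand: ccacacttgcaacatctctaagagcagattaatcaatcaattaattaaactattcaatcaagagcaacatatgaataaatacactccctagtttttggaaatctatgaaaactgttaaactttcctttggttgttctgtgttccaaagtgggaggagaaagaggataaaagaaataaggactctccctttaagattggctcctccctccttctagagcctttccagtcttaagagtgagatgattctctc
Marco, chr1:120505025-120505274, minus strand: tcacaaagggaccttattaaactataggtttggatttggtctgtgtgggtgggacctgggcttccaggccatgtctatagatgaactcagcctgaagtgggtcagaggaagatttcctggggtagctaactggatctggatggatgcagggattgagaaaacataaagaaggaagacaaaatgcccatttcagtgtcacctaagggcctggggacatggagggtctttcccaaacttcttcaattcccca
Cd36, chr5:17835897-17836146, minus strand: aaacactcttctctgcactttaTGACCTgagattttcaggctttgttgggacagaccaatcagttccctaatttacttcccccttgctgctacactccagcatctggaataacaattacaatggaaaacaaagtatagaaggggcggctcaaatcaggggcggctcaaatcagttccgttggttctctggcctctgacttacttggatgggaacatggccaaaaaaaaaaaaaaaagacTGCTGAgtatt

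The *Cd5l* window held 2 MAF cores facing each other 2 bases apart, TGCTGAacTCAGCA, from 54 to 41 bases before the start. This paired form, TGCTGANNTCAGCA, was taken from the *Cd5l* window and searched after that window had been seen. It occurred in 2 of 32851 promoter windows (0.00609%). The *Cd5l* window is 1 of the 2, so that match was fixed beforehand and the share is not a test. A MAF core was in 4 of the 7 member windows (*Cd5l*, *Cd36*, *Scarb2* and *Stab1*) and in 19.5% of all windows. The nuclear receptor core was in those of *Cd36* and *Stab2* and in 16.3% of all windows. The PU.1 letters were in 0 of the 7 and in 3.20% of all windows, and the E-box core in 0 of the 7 and in 7.15%. The *Cd163* and *Marco* windows held none of the 4 motifs. A match is a run of letters and was not tested as a binding site.

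Each transcript was also set beside the genes whose values followed it most closely over the 5 arrays, by the root mean square difference of log2 profiles centred on their means, among 8954 genes with a mean log2 intensity of at least 6. For *Msr1* these were *Plek*, which encodes the platelet and leukocyte protein pleckstrin, and *Fermt3*, the kindlin of blood cells, both at 0.05 log2 units. For *Cd5l* they were *Csf2rb*, the shared beta chain of several myeloid cytokine receptors, at 0.04 and *Ly9*, a receptor of the SLAM family, at 0.05. For *Cd163* they were *Oas2*, an interferon-induced enzyme, at 0.07 and the kinase *Prkcb* at 0.08. For *Cd36* they were *Lrrc8b* at 0.06 and the adaptor *Sh2b3* at 0.07.

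The profiles of *Marco* and *Lyve1*, in both of which CSF1-Fc replicate 1 was high, had no gene within 0.1 log2 units. The nearest to *Marco* were *Hic1* and the monocyte nuclear receptor *Nr4a1*, at 0.25 and 0.26. The nearest to *Lyve1* were *Cep78* and *Tcirg1*, a proton pump subunit, at 0.12 and 0.15. For *Stab2* they were *Retreg1* and *Rab11fip1* (both at 0.06), for *Stab1* *Fndc3b* and *Cntrob* (both at 0.03), for *Scarb1* *Smad4* and *Nelfcd* (both at 0.02) and for *Scarb2* the cytochrome *Cyp2a12* and *Tbl3* (both at 0.02). Flat profiles had many near neighbours, with 682 genes within 0.1 of *Scarb1* and 621 within 0.1 of *Scarb2*, against 7 for *Msr1* and 14 for *Cd5l*.

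**Figure D5:**
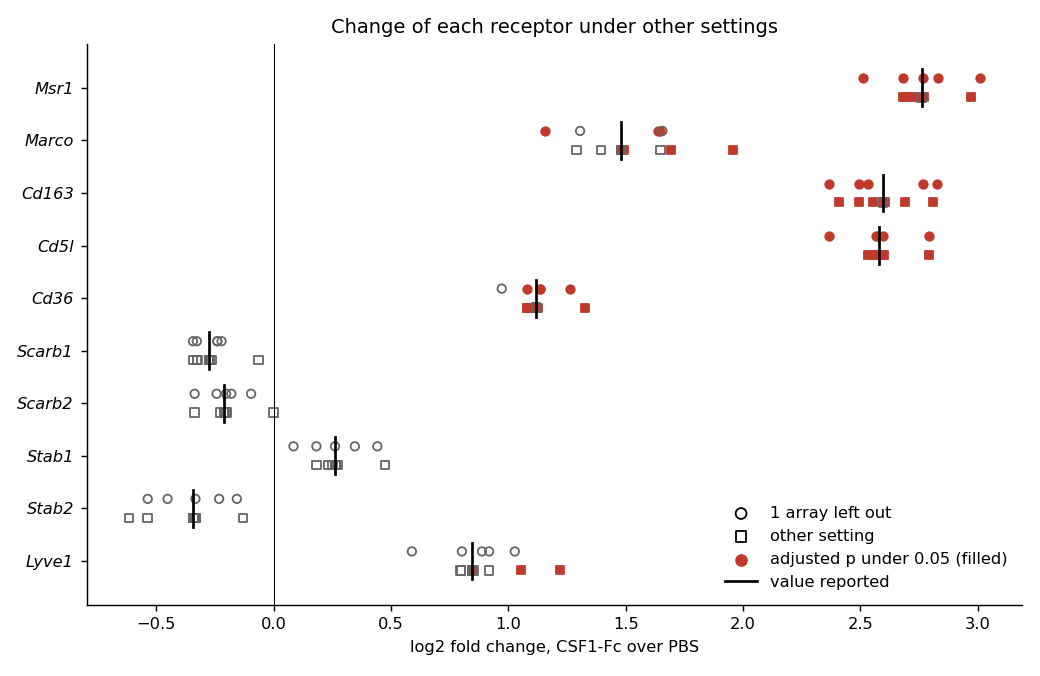
Log2 fold change of each transcript, CSF1-Fc over PBS (horizontal axis), with 1 array left out (circles, 5 settings) and under 13 other settings (squares), beside the value reported (black line). Filled red symbols passed an adjusted p of 0.05. *Msr1*, *Cd163* and *Cd5l* stayed between 2.37 and 3.01, and no transcript changed sign.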

How the data were processed

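Liver RNA was amplified and biotin-labelled with Nugen kits and read on Mouse Gene 1.1 ST arrays (Affymetrix). The scans were checked in Expression Console (1.1 in the submitters' processing notes) and taken into Partek Genomics Suite. The labels name Trizol for the RNA extraction and the methods RNA Bee. The authors deposited normalized intensities on a linear scale, 1 per transcript row. How background was corrected and how rows were normalized and summarised was not stated in the sources read.

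The limma package (3.58.1, R 4.3.3) was applied to log2 values of the deposited intensities (1 mean per group, eBayes defaults, 3 residual and 3.34 prior degrees of freedom), with no pseudocount or filter, and p-values were adjusted by Benjamini-Hochberg over 35556 rows. Of these, 21218 carried 1 gene symbol in the platform annotation, 1881 several and 12457 none. A gene was represented by its brightest row with 1 symbol. Median intensity was 31.1 to 33.0 on the CSF1-Fc arrays and 32.1 to 32.2 on the PBS arrays. Log2 values correlated at 0.983 to 0.990 among CSF1-Fc arrays and 0.991 between PBS arrays. Arrays have no read depth, and the precision is limited by how many there were.

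The 10 genes and the 14 gene lists were chosen with earlier results of these data known. From each list the text names the 4 called genes that changed most, or, with no call, the gene of lowest p. All other scavenger receptors, 9 defining cell markers and, for each of the 10, its 2 nearest profiles were named too. Other list genes given beside a count were chosen after their values were seen. In the lists 3 genes were matched through older symbols (*Adgre1*, *Cemip2* and *5830411N06Rik*). Listed genes that could not be matched to a row with 1 gene symbol were left out of the counts. Most were lost from the lipoprotein list, with 14 of 20 measured, and 7 of 10 blood monocyte markers were measured. Some genes were shared between lists, among them *Cd68*, *Laptm5*, *Adgre1*, *Hmox1*, *Slc40a1*, *Spic* and *Cdh5*, so the list counts are not independent of each other. Alternatives were other scalings, filters, row rules, a pseudocount, other variance models, array weights (statmod 1.5.0), a minimum change, a replicate block and each array left out. Changes of single list genes with an array left out (*S100a8*) are differences of means and were added after the data had been seen. Proteins were not analysed here. Promoter sequences are RefSeq's (GRCm38.p6).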

Additional observations from a re-analysis of the deposited data

How the results depend on the processing

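Over the 18 alternatives, the direction of the change of all 10 transcripts was kept. Of the 180 values, 164 stayed on the same side of the threshold, 12 lost the call (*Marco* 7, *Cd36* 3, *Msr1* 1, *Cd163* 1) and 4 gained it (*Lyve1*). Of the 10, 1 was higher without moderation of the variance, 3 against a minimum log2 change of 0.5 and 3 to 5 with 1 array left out. Over all rows tested, the number higher was 550 without moderation, 3416 with array weights, 1090 against the minimum change and 1079 to 2053 with 1 array left out. The number lower was 478 with arrays centred on secreted proteins, 1772 over rows with 1 gene symbol, 1709 with the mean over rows, 127 without moderation, 3805 with array weights, 79 against the minimum change and 134 to 1768 with 1 array left out. The cause was not tested.

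The replicate numbers share only a number: deviations of same-numbered arrays correlated at -0.07 (replicate 1) and -0.25 (replicate 2). With the replicate block 4 of the 10 were higher (*Marco* was at 1.65, adjusted p = 0.0533), and over all rows 1577 were higher and 927 lower.

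Over all settings the counts higher were 7 to 18 for macrophage markers, 6 to 10 for Kupffer cell markers, 1 to 7 for monocyte markers, 2 to 10 for lymphocyte and neutrophil markers, 0 to 6 for other scavenger receptors, 3 to 7 for haem handling, 0 to 3 for hyaluronan, 1 to 2 for lipoprotein genes, 0 to 5 for lysosomal genes, 4 to 9 for regulators, 1 to 3 for endothelial markers, and 0 to 1 for stellate markers and for SRCR genes. The counts lower were 1 to 8 for endothelial markers, 0 to 4 for lipoprotein genes, 0 to 3 for regulators and for stellate markers, 0 to 2 for other scavenger receptors and for secreted proteins and 0 to 1 for haem, hyaluronan, lysosomal, and lymphocyte and neutrophil genes.

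Rows under a log2 intensity of about 5 are dim, and the size of their changes is uncertain. The lowest value of any of the 10 receptors on any array was 5.87 (*Marco*).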
